A study of Saccharomyces cerevisiae with 24 samples.

Results

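The HSP70 chaperones of budding yeast were followed in 23 libraries of ribosome footprints, short pieces of mRNA left after RNase digestion because a ribosome covered them. The family was taken by name as 10 genes: SSA1 (YAL005C), SSA2 (YLL024C), SSA3 (YBL075C), SSA4 (YER103W), SSB1 (YDL229W), SSB2 (YNL209W), SSE1 (YPL106C), SSE2 (YBR169C), KAR2 (YJL034W) and SSC1 (YJR045C). They fill 8 of the 5564 entries of the expression table, because SSA1 with SSA2 and SSB1 with SSB2 are counted in 1 entry each. The list was made by name and not by a threshold on any value.

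HSP70 proteins bind short hydrophobic stretches of unfolded chains and release them in a cycle driven by ATP. J proteins deliver clients and stimulate ATP hydrolysis, and exchange factors reset the cycle. In yeast the Ssa proteins serve the cytosol and include constitutive and heat-induced forms. The Ssb proteins sit on translating ribosomes and bind nascent chains together with the ribosome-associated complex of the J protein Zuo1 and the HSP70 relative Ssz1. Sse1 and Sse2 are HSP110-type relatives that act as exchange factors of Ssa and Ssb, Kar2 (the yeast BiP) works in the endoplasmic reticulum and Ssc1 in the mitochondrial matrix.

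All cells were of strain BY4741, a haploid laboratory strain that cannot make histidine, leucine or methionine. Cells in YPD at 30°C were left unstressed, treated with 0.2 mM hydrogen peroxide for 30 min (oxidative stress), or filtered and moved to preheated YPD at 42°C for 20 min (heat shock). Unstressed and peroxide-treated cells were sampled without cycloheximide, which stops elongating ribosomes, and at 6 doses in the medium named by their multiple of the usual 100 μg/ml (x1/64, x1/16, x1/4, x1, x8 and x100), and heat-shocked cells without drug and at x1. The x100 dose, for which filtered cells were resuspended in medium with the drug, had 2 independently repeated libraries per stress, the remaining conditions 1 each. In the starvation experiment cells grew in complete SD medium or were moved from it for 20 min. They went to SD without amino acids, or to the latter with histidine, methionine and leucine added back. SD without amino acids held only a nitrogen source and glucose, so it also lacked the other supplements of complete SD. The methods name uracil among the supplements added back in some cases, but not for which library. The 2 further unstressed libraries had edeine or aurintricarboxylic acid, inhibitors of initiation, in the lysate. The lysis buffer of every library held cycloheximide.

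The expression values are RPKM, reads per kilobase of gene and per 10 to the power of 6 reads (M), so that levels of different genes can be set side by side. Recovered depth ran from 1.92 to 27.9 M reads with a median of 6.93 M, and 12 libraries carried primer set 1 and 11 primer set 2. Primer set was a term only in the fits of the trend with cycloheximide dose and of its difference between stresses. The main fits of the stresses and of x1 against no drug had no such term, and primer set entered there only in alternative fits. The stress labels were checked by marker genes (limma). All 8 peroxide-response genes rose under oxidative stress, with a median log2 difference of 3.78, where 63.0% of all genes were higher. All 11 entries of other heat shock proteins rose under heat shock, with a median of 4.14, where 26.7% of all genes were higher. A rise alone does not separate the stresses. After heat shock 6 of the 8 peroxide-response genes also rose and 1 fell (median 1.25). Under peroxide 10 of the 11 entries rose (median 1.07). Compared directly, all 8 were lower after heat shock than under peroxide (median −2.93) and all 11 were higher (median 2.90). The shares over all genes are given below with that comparison. As no mRNA libraries were used, a change in mRNA and a change in ribosomes per mRNA cannot be told apart for any gene below.

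In unstressed cells the family fell into abundant, middle and barely translated members. SSA1/SSA2 was highest at 2547.5, 2970 and 3473 RPKM per gene (lowest, median and highest of 8 libraries). SSB1/SSB2 followed at 1791, 2165 and 3310 RPKM per gene, overlapping with SSA1/SSA2, and its highest value came from the x1/64 library, the next one being 2307 RPKM. SSE1 (911, 1055 and 1152 RPKM) lay just above SSC1 (585, 826 and 909 RPKM) without overlap. KAR2 stood clear of its neighbours on both sides, at 223, 302 and 459 RPKM. The inducible members were far lower, with SSE2 at 8.45, 15.8 and 25.3 RPKM and SSA4 at 2.65, 6.62 and 11.3 RPKM, 2 ranges that overlap. SSA3 was lowest at 0.14, 0.437 and 0.836 RPKM, which rests on 2 to 15 reads per library. The ribosome-linked SSB1/SSB2 exceeded SSA4 by a factor of 158 to 840 in these libraries.

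The plot of levels by cycloheximide dose shows that this order held in every unstressed library except x1/64, where SSB1/SSB2 exceeded SSA1/SSA2, and differed in both stresses.

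**Figure D1:**
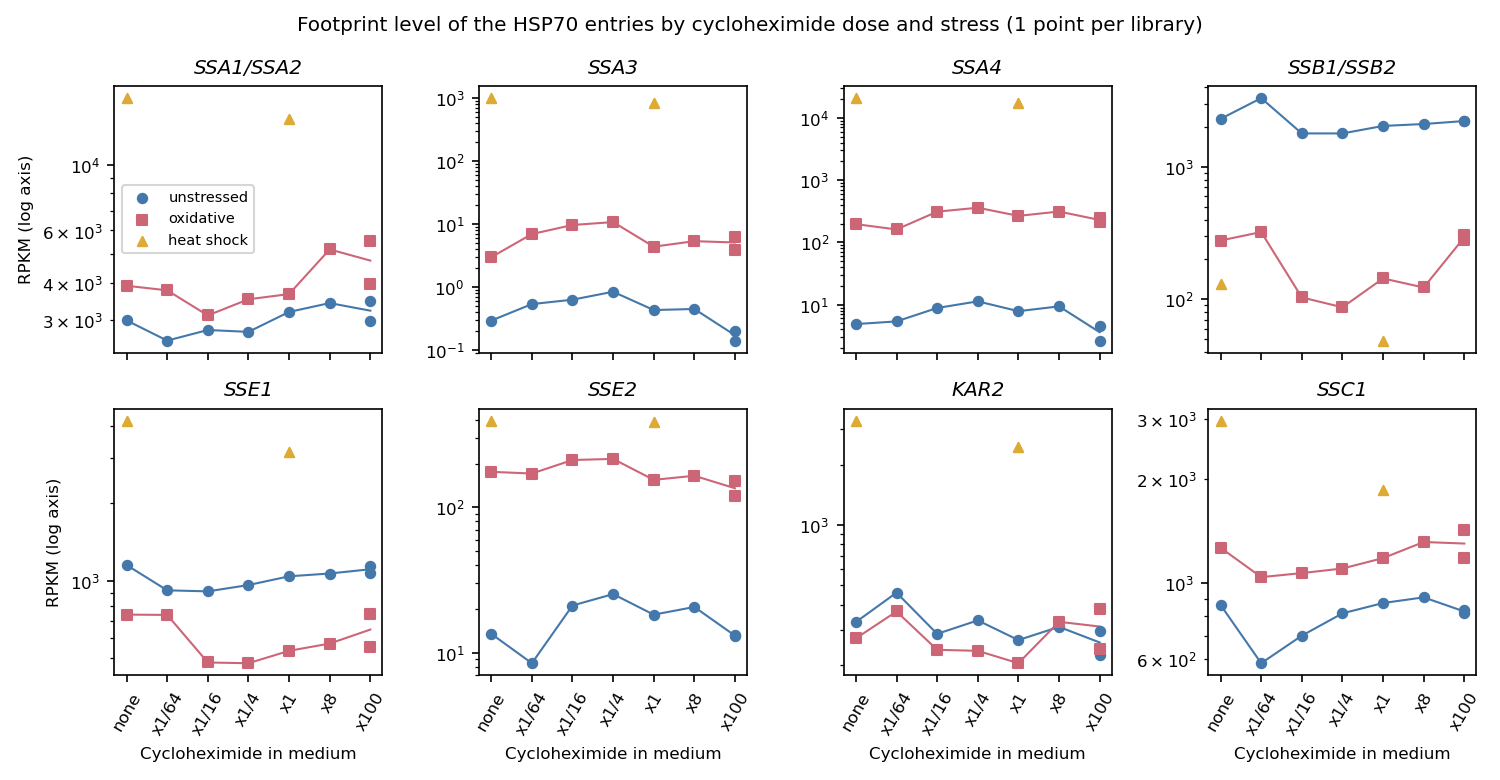
RPKM (log axis, scaled per panel) of the 8 HSP70 entries against the cycloheximide dose in the medium, 1 point per library for unstressed (circles), oxidative stress (squares) and heat shock (triangles), with lines through the mean of each dose. SSA4 and SSE2 of peroxide-treated cells lie above and SSB1/SSB2 below all 8 unstressed libraries, and both heat shock libraries lie above all other libraries shown for every entry except SSB1/SSB2.

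Under hydrogen peroxide members moved in both directions, in counts close to the shares over all genes. SSA4 and SSE2 rose strongly, and SSC1 and SSA1/SSA2 rose slightly, about as much as the median gene. SSE1 fell and SSB1/SSB2 fell more than 7-fold at every dose, while KAR2 did not pass the test. Across the 7 doses (16 libraries, limma with dose as a block, Benjamini-Hochberg over 4352 genes), 4 entries were higher and 2 lower of 7 tested, where 85.8% of all genes tested were called, 63.0% higher and 22.8% lower. The median gene itself shifted by 0.53 on the log2 scale, against a median of 0.42 over the 7 tested entries.

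SSA4, the cytosolic member known for its induction by heat, had 161, 256 and 360 RPKM in the 8 peroxide libraries against 2.65, 6.62 and 11.3 RPKM in the 8 unstressed ones. The groups did not overlap, as for 50.7% of all genes (38.2% higher, 12.5% lower), and the ratio at equal dose lay between 30.0 and 63.4. Its log2 difference was 5.10 (SE 0.13, limma adjusted p = 1.16e-11), and within primer sets 1 and 2 it was 4.98 and 5.34. SSA4 passed the filter on low values only through the peroxide libraries, here and at x100, so that it had to differ once tested and its p is no support. SSE2, the inducible partner of SSE1, had 119, 168 and 215 RPKM under peroxide against 8.45, 15.8 and 25.3 RPKM, again without overlap. It differed by 3.32 (SE 0.13, limma adjusted p = 1.75e-10), and its ratio was between 8.0 and 20.2 at the 7 doses. SSA3 was below the level required for the test, a mean of 10 RPKM, at 2.95, 5.76 and 10.7 RPKM under peroxide. All 8 of its peroxide libraries were above all 8 unstressed ones; without drug, the ratio was 10.1 from 58 against 15 reads.

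SSB1/SSB2 went the other way, from 1791, 2165 and 3310 RPKM in unstressed cells to 87.0, 211 and 322 RPKM under peroxide. Its log2 difference was −3.58 (SE 0.17, limma adjusted p = 8.85e-10), with −3.83 and −3.06 within primer sets 1 and 2. The fall was 7.57-fold at x100, the smallest of the 7 doses, and 20.6-fold at x1/4, the largest. The libraries at x1/16 to x8 had 87.0 to 144 RPKM and those without drug, at x1/64 and at x100 had 278 to 322 RPKM, so the peroxide libraries formed 2 levels of SSB1/SSB2. SSE1, the main HSP110-type exchange factor, fell from 911, 1055 and 1152 RPKM to 479, 562 and 740.5 RPKM without overlap (log2 difference −0.79, SE 0.09, limma adjusted p = 4.49e-06). The 2 HSP110-type genes thus moved in opposite directions, and SSE2 went from between 0.919 and 2.62% of the SSE1 level in unstressed cells to between 20.4 and 44.9% under peroxide.

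The remaining members changed little. The mitochondrial SSC1 had 1040, 1181 and 1423 RPKM under peroxide against 585, 826 and 909 RPKM, higher in every library (log2 difference 0.58, SE 0.07, limma adjusted p = 7.03e-06). SSA1/SSA2, the constitutive cytosolic pair, had 3099, 3835 and 5523 RPKM against 2547.5, 2970 and 3473 RPKM, with overlap, and was higher at 7 of 7 doses (log2 difference 0.42, SE 0.09, limma adjusted p = 0.000815). KAR2 overlapped, at 204, 256 and 381 RPKM against 223, 302 and 459 RPKM, and differed by −0.15 (95% interval −0.42 to 0.13, limma adjusted p = 0.287). The median gene had itself shifted by 0.53, and after centring every library on the median gene SSC1 stood at 0.06 (limma adjusted p = 0.385), SSA1/SSA2 at −0.10 (0.306) and KAR2 was lower by −0.67 (limma adjusted p = 0.000584). Within primer set 1 SSA1/SSA2 was not called (0.31, limma adjusted p = 0.083).

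At x100, the dose with 2 libraries on each side, SSA4 averaged 229 ± 22.0 RPKM (SD, n = 2) under peroxide against 3.61 ± 1.36, and SSB1/SSB2 294 ± 19.7 against 2222 ± 1.81. KAR2, with 311 ± 99.1 against 259 ± 50.8 RPKM, differed by less than its spread. In the limma fit of these 4 libraries, 4 entries were again higher and 2 lower of 7 tested, against 74.9% of all 4101 genes called (55.3% higher, 19.7% lower). The log2 differences were 5.67 for SSA4, which entered this fit through the peroxide libraries alone, and 3.26 for SSE2, −2.92 for SSB1/SSB2 and −0.79 for SSE1, the last 3 with limma adjusted p of 3.72e-05, 2.63e-05 and 0.00626. Those of SSC1 and SSA1/SSA2, 0.65 and 0.55, had limma adjusted p of 0.00556 and 0.0409. The call of SSA1/SSA2 was lost when either unstressed library or the first peroxide library was left out (0.43, 0.66 and 0.31), and KAR2 was called without the second peroxide library (0.57, limma adjusted p = 0.0382), fits in which the lone library of an arm is assumed to vary like the other arm. These libraries also enter the comparison across doses, so the 2 results are not independent.

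Heat shock raised every entry of the family except SSB1/SSB2. The rises were found in all compartments, with SSA4 and SSA3 in the cytosol, KAR2 in the endoplasmic reticulum and SSC1 in mitochondria. A joint entry gives a mean per gene, so whether SSA1 and SSA2 each rose cannot be told. Compared with the 8 unstressed libraries (18 libraries in the limma fit, dose as a block, 4317 genes tested), 7 entries were higher and 1 lower of 8, where 69.9% of all genes were called, 26.7% higher and 43.2% lower. The median over the 8 entries was 2.87 on the log2 scale and −0.28 over all genes. The heat shock libraries, both of primer set 2, did not overlap with the 8 unstressed ones for any of the 8 entries, as for 60.5% of all genes (19.2% higher, 41.4% lower). Both came from cells that had been filtered and moved to other medium before harvest, which the methods do not state for the unstressed cells without drug and at x1, so temperature and transfer cannot be told apart.

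SSA4 had 20714 RPKM without drug and 17531 RPKM at x1 after heat shock, against 4.88 and 7.86 RPKM in the matching unstressed libraries, ratios of 4243 and 2230. Its log2 difference was 11.42 (SE 0.26, limma adjusted p = 1.93e-12). SSA4 exceeded the mean per gene of SSA1/SSA2, 16794 and 14233 RPKM, which does not show that it exceeded each of these genes. That joint entry itself was 5.63 and 4.47 times its unstressed level (log2 difference 2.39, SE 0.17, limma adjusted p = 3.29e-08). SSA3 reached 991 and 824 RPKM (log2 difference 9.63, SE 0.24, limma adjusted p = 3.66e-12), and so remained more than 20 times lower than SSA4. Both SSA3 and SSA4 passed the filter on low values only through the stressed libraries, so that they had to differ once tested. Reads that match several SSA genes could not be assigned here, and their part in the SSA3 level was not tested. SSA3 stood at 3.06 to 9.88% of the SSA4 level in unstressed cells, at 1.5 to 4.27% under peroxide, at 4.70 and 4.78% after heat shock, at 40.8% in SD without amino acids and at 1.14% with the 3 amino acids added back.

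KAR2, which had not passed the test under peroxide, was at 3309 and 2437 RPKM after heat shock, 10.1 and 9.17 times its unstressed level (log2 difference 3.35, SE 0.22, limma adjusted p = 1.74e-08). SSE2 reached 394 and 385 RPKM (4.56, SE 0.23, limma adjusted p = 1.98e-09), and SSE1, which fell under peroxide, reached 4186 and 3169 RPKM (1.74, SE 0.17, limma adjusted p = 6.74e-07). SSC1 rose to 2959 and 1865 RPKM (1.48, SE 0.16, limma adjusted p = 2.04e-06). SSB1/SSB2 alone fell, to 131 RPKM without drug and 48.7 RPKM at x1, or 17.6- and 41.9-fold below the matching unstressed libraries (log2 difference −4.81, SE 0.32, limma adjusted p = 1.73e-08). Within primer set 2 the difference was 11.88 for SSA4, 3.19 for KAR2, 1.80 for SSE1 and −4.97 for SSB1/SSB2, and all 8 entries were called there too. That fit had no dose term, and its heat-shocked and unstressed libraries had no dose in common, so stress and dose cannot be told apart in it. The unstressed library with the highest SSB1/SSB2 level was among its controls. Both matching unstressed libraries carried primer set 1, so every matched ratio after heat shock crosses primer sets.

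**Figure D2:**
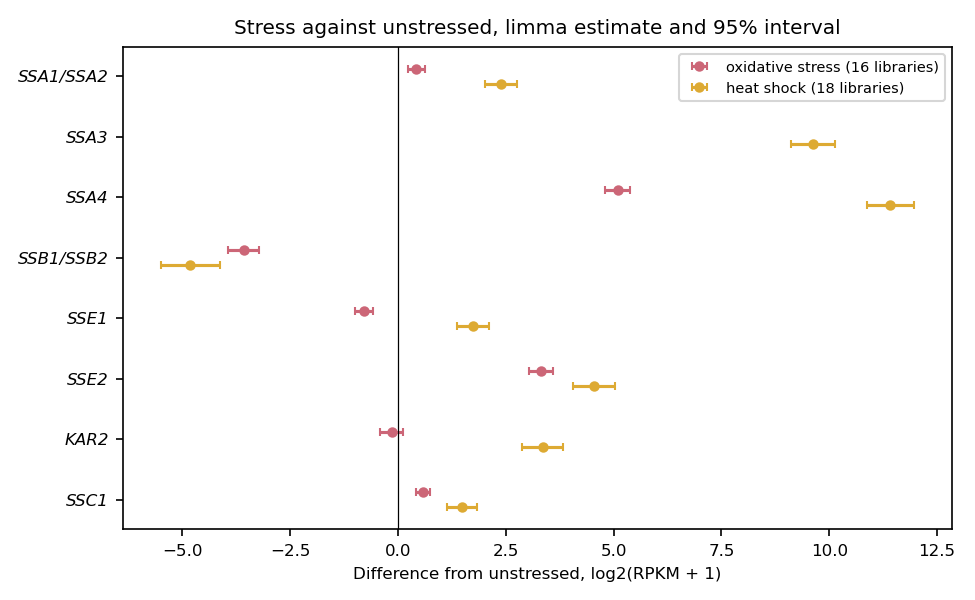
Difference in log2(RPKM + 1) from unstressed cells for each HSP70 entry, with 95% limma intervals, for oxidative stress (16 libraries) and heat shock (18 libraries, 2 of them heat-shocked). SSB1/SSB2 lies below 0 in both stresses, SSE1 on opposite sides of 0 (−0.79 and 1.74), and SSA3 has no point for oxidative stress because it was not tested there.

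The stresses were also compared directly. Heat shock exceeded oxidative stress for 7 of 8 entries and was below it for SSB1/SSB2, where 5.0% of all 4317 genes were higher and 74.1% lower, 79.1% in all (limma, same 18 libraries). KAR2 and SSE1 differed by 3.50 and 2.53 on the log2 scale, with limma adjusted p of 8.13e-08 and 1.48e-07. SSA3 and SSA4 differed by 7.37 and 6.32, but SSA3 was tested only because the 2 heat shock libraries lifted its mean over the filter. SSA1/SSA2, SSE2 and SSC1 differed by 1.97, 1.23 and 0.90 (limma adjusted p of 1.00e-06, 0.000281 and 0.000257). SSB1/SSB2 differed by −1.24 (SE 0.32, limma adjusted p = 0.00283), from 131 and 48.7 RPKM against 278 and 144 RPKM at the same doses under peroxide. That last difference was not called without the x1 heat shock library (−0.81, limma adjusted p = 0.115) or after centring on the median gene (−0.42, 0.232), and the median of all genes was −0.88.

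The make-up of the family's footprints therefore differed between conditions. The cytosolic SSA genes held 37.3 to 51.1% of the summed RPKM of the 10 genes in unstressed cells, 72.2 to 80.3% under peroxide, and 83.3 and 85.5% after heat shock without drug and at x1. The share of SSB1 and SSB2 went from 31.6 to 48.3% (median 32.5%) in unstressed cells to 1.81 to 6.04% under peroxide and to 0.396 and 0.178% after heat shock. SSA4 alone held 31.2% in the heat shock library without drug. The family's total was nearly the same share of all reads in unstressed and peroxide-treated cells, 2.01 to 2.48% and 1.61 to 2.67%, and was 12.3 and 10.1% after heat shock. In peroxide-treated cells the total thus overlapped with that of unstressed cells while the shares of the SSA genes and of SSB1 and SSB2 did not. These shares are descriptions and were not tested.

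**Figure D3:**
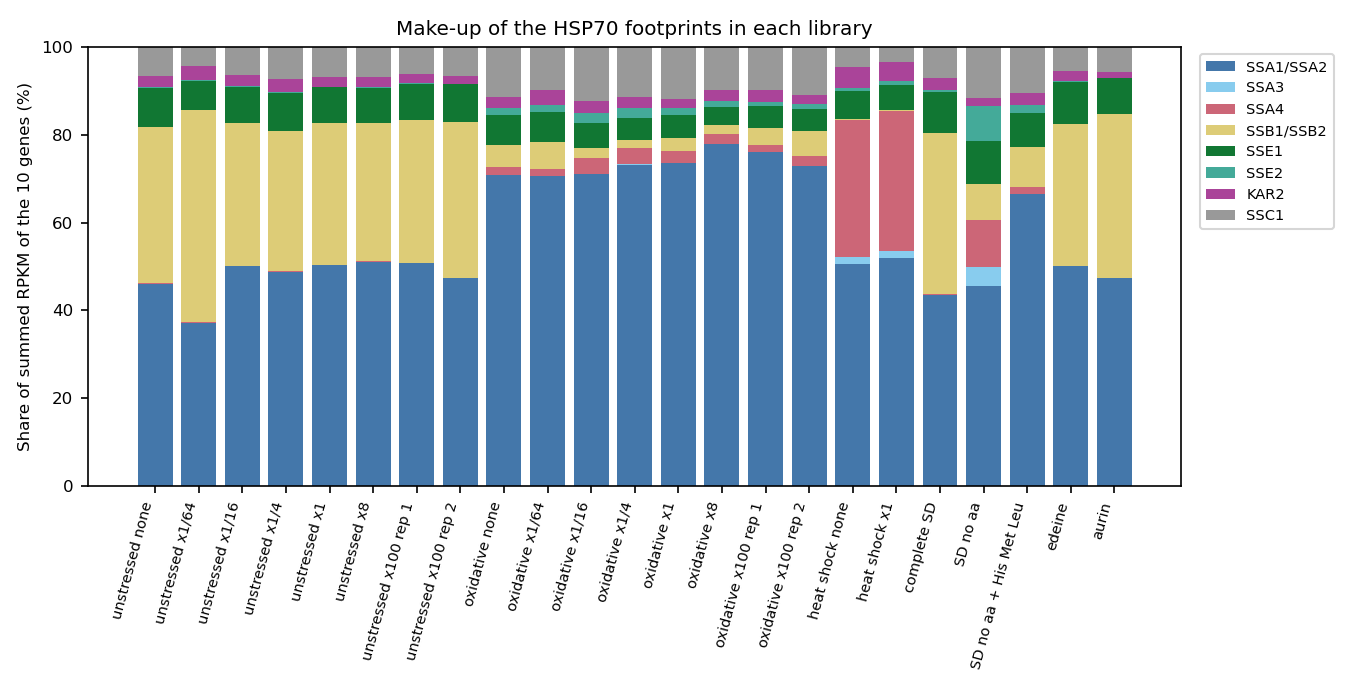
Share of each HSP70 entry (joint entries counted for both genes) in the summed RPKM of the 10 genes, as stacked bars adding to 100% for each of the 23 libraries. The SSB1/SSB2 segment, 31.6 to 48.3% in unstressed libraries, shrinks to 6.04% or less under oxidative stress and is nearly invisible after heat shock, where SSA4 holds 31.2% without drug.

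Across the cycloheximide doses, SSA4, SSE2 and SSB1/SSB2 moved far less than they did under either stress. This did not hold for KAR2 under peroxide, which spanned 2.06-fold over the unstressed libraries against peroxide ratios of 0.705 to 1.20 at equal dose. SSA1/SSA2 spanned 1.78-fold over the peroxide libraries against ratios of 1.12 to 1.52. SSC1 spanned 1.55-fold over the unstressed libraries against 1.35 to 1.78. SSE1 spanned 1.55-fold over the peroxide libraries against falls of 1.25- to 2.01-fold at equal dose. Over the 14 libraries with drug in YPD (limma, stress and primer set as terms), 1 entry of 7 tested, SSC1, rose with the dose, by 0.12 on the log2 scale per 10-fold dose (SE 0.03, limma adjusted p = 0.0137), where 23.8% of all 4371 genes were called, 4.30% higher and 19.5% lower. SSC1 had 585 RPKM at x1/64, 909 at x8 and a mean of 826 at x100 in unstressed cells, and 1040, 1315 and 1302 RPKM under peroxide. Without the x1/64 dose it was no longer called (0.10, limma adjusted p = 0.313), nor was it within primer set 1 (0.16, 0.262) or primer set 2 (0.11, 0.106). The slopes of the other 6 entries lay between −0.10 for KAR2 and 0.11 for SSA1/SSA2.

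Whether the slope with dose differed between stressed and unstressed cells was tested by an interaction. It compares straight lines in log10 dose over the libraries with drug. It therefore cannot show a difference that falls and rises again with dose, such as the 2 levels of SSB1/SSB2 under peroxide. None of the 7 entries and none of the 4371 genes (0%) was called by limma, and 229 genes (5.24%), 1 of them SSA4, had an unadjusted p under 0.05. SSA4 under peroxide was 30.0 times its unstressed level at x1/64 and 63.4 times at x100, its lowest unstressed values being 4.58 and 2.65 RPKM at x100 (slope difference 0.26, 95% interval 0.04 to 0.49, limma adjusted p = 0.891). Between x1 and no drug, over 3 stress series, no entry of 8 was called, where 4.15% of all 4317 genes were (1.02% higher, 3.13% lower). By unadjusted p, 2 of 8 entries were below 0.05, SSB1/SSB2 and SSE1, and 29.4% of all genes. SSB1/SSB2 had 2040, 144 and 48.7 RPKM at x1 against 2307, 278 and 131 RPKM without drug in unstressed, peroxide-treated and heat-shocked cells, lower in 3 of 3 (−0.85, 95% interval −1.46 to −0.23, limma adjusted p = 0.0834). The peroxide pair crosses primer sets, and with primer set as a term the difference was −0.75 (limma adjusted p = 0.205).

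Amino acid starvation was profiled in single libraries, so no test was possible and the intervals below cover counting error only. In SD without amino acids, all constitutive members were low. SSA1/SSA2 was at 538 RPKM per gene (95% Poisson interval 521 to 556) against 2345 in complete SD, and SSB1/SSB2 at 95.2 (87.9 to 103) against 1981, ratios of 4.36 and 20.8. KAR2 was 6.62 times lower at 44.4 RPKM, SSE1 4.29 times lower at 234 RPKM and SSC1 2.80 times lower at 275 RPKM. The inducible members were high, SSA4 at 253 RPKM (237 to 271) against 21.0, SSE2 at 187 against 34.3 and SSA3 at 103 (93.0 to 114) against 0.557 RPKM, the last from 367 against 10 reads. With a log2 difference of at least 1 as the limit, 3 entries were higher and 5 lower, where 45.9% of 4383 genes were higher and 14.6% lower, 60.5% in all, and the median gene was 0.87 higher.

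In the library with the 3 amino acids restored, the constitutive members were nearer to complete SD than without amino acids. SSB1/SSB2 was still low at 341 RPKM, 5.81 times below complete SD, and SSA4 and SSE2 were high at 125 and 147 RPKM, 5.96 and 4.28 times above it. SSA1/SSA2 and SSC1 were at 2492 and 782 RPKM, within 1.06-fold of complete SD, and SSA3 at 1.43 RPKM (0.802 to 2.36). SSE1 and KAR2 were 1.74 and 1.42 times lower than in complete SD, at 577 and 206 RPKM. Here 2 entries were higher and 1 lower, where 28.4% of genes were higher and 11.9% lower, 40.3% in all. The median gene was 0.54 higher on the log2 scale, and relative to it SSE1 (−1.34) and KAR2 (−1.05) were past the limit as well. SSA3 thus differed by 72.2 times between the 2 starved libraries, and SSA4 by 2.02 times. The library without amino acids was the shallowest of all at 1.92 M reads. It and complete SD carried primer set 1 and the library with the 3 amino acids primer set 2, so both comparisons with the latter cross primer sets. Starved cells had been filtered and moved to other medium before harvest, which the methods do not state for complete SD. Starvation and transfer thus cannot be told apart. The family took 0.438% of the reads without amino acids, 1.38% with the 3 amino acids and 1.96% in complete SD.

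**Figure D4:**
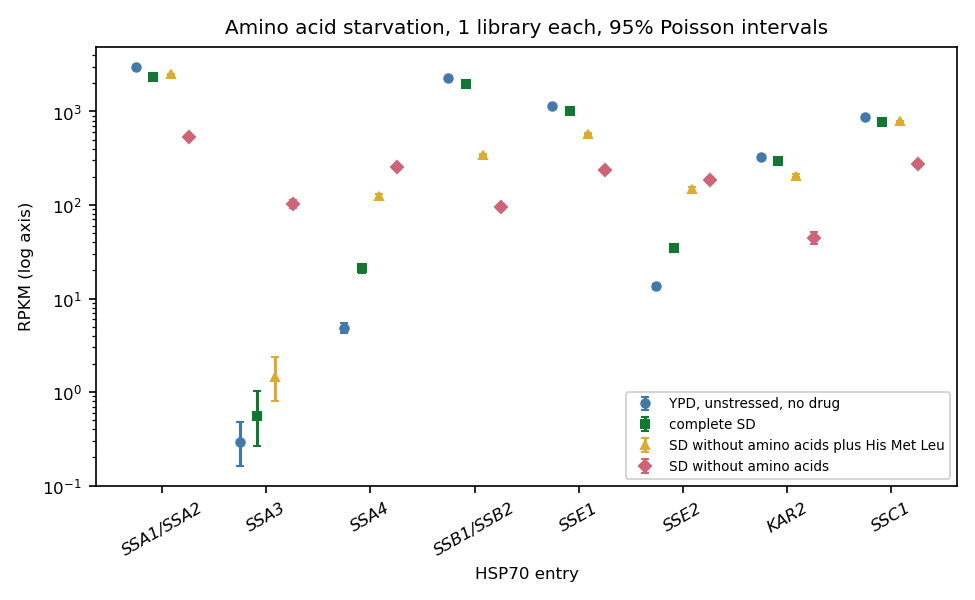
RPKM (log axis) of the 8 HSP70 entries in unstressed YPD cells without drug, complete SD, SD without amino acids plus histidine, methionine and leucine, and SD without amino acids, 1 library each, with 95% Poisson intervals of the recovered reads. SSA3 is near 1 RPKM or below in 3 of the libraries and at 103 RPKM in SD without amino acids, whereas SSB1/SSB2 drops in both starved libraries.

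Edeine and aurintricarboxylic acid were added at lysis, after growth of the cells. With aurintricarboxylic acid the preparation differed too, as pooled polysomes and monosomes were digested with RNase only after the gradient. Inhibitor and preparation thus cannot be told apart for that library. All 8 entries stayed within a log2 difference of 1 of the unstressed library without drug, where 2.24 and 3.74% of all genes passed it. The largest differences were those of SSA4 with edeine (9.66 against 4.88 RPKM) and of KAR2 with aurintricarboxylic acid (181 against 327 RPKM).

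Partners of the family were counted from named lists. Of 14 J proteins and exchange factors, 10 were higher and 4 lower under peroxide, with a median log2 difference of 0.42, and 8 were higher and 5 lower after heat shock, with a median of 0.78. Over all genes 63.0% were higher and 22.8% lower under peroxide (median 0.53), and 26.7% higher and 43.2% lower after heat shock (median −0.28). ZUO1, the ribosome-bound J protein that works with Ssb, fell in both, by 1.88 and 2.60 on the log2 scale (limma adjusted p = 2.01e-10 and 1.46e-08). Its partner SSZ1, from the list of 4 other HSP70 relatives, also fell, by 1.51 and 2.87 (limma adjusted p = 7.06e-09 and 2.43e-08). SSB1/SSB2, ZUO1 and SSZ1, which work together on the ribosome, thus all had lower footprint levels in both stresses. The list's largest rises were those of SIS1, a cytosolic J protein, by 1.38 and MDJ1, the mitochondrial partner of Ssc1, by 1.59 under peroxide, and those of the J protein APJ1 by 4.45 and the cytosolic exchange factor FES1 by 4.54 after heat shock, all 4 called by limma. YDJ1, the most general cytosolic J protein, fell by 0.68 under peroxide (limma adjusted p = 0.00142), and SNL1, an exchange factor in the endoplasmic reticulum membrane, fell by 2.08 after heat shock. SSQ1, the HSP70 of iron-sulfur cluster assembly, was 1.09 higher under peroxide, and LHS1, the exchange factor of Kar2, 0.50 higher after heat shock, the only rises among the 3 relatives tested; ECM10 was too low to be tested.

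The stress-induced members were set beside the other heat shock proteins and SSB1/SSB2 beside the cytosolic ribosomal proteins. The latter were 96 entries taken by RPL, RPS and RPP gene names alone, which may include a gene that is not ribosomal. Of 11 entries of other heat shock proteins, 10 were higher under peroxide and none lower, with a median log2 difference of 1.07, where the small heat shock proteins HSP12 and HSP42 led with 7.09 and 5.02; after heat shock HSP26 and HSP12 led with 10.43 and 9.28. SSA4 was above this list's median change in both stresses. All 96 ribosomal protein entries were lower under peroxide, with a median of −2.49, led by RPS22A and RPL31B with −3.27 and −3.23, and 95 of 96 were lower after heat shock, with a median of −4.12. SSB1/SSB2 lay at the far end of them under peroxide, where 0 to 2 of the 96 entries fell more at each of the 7 doses, and further inside after heat shock, where 18 and 14 fell more without drug and at x1. The log2 level of SSB1/SSB2 relative to the median ribosomal protein entry was −0.53 to 0.51 in the unstressed libraries, −1.63 to −0.74 under peroxide, and −0.47 and −1.09 after heat shock without drug and at x1.

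**Figure D5:**
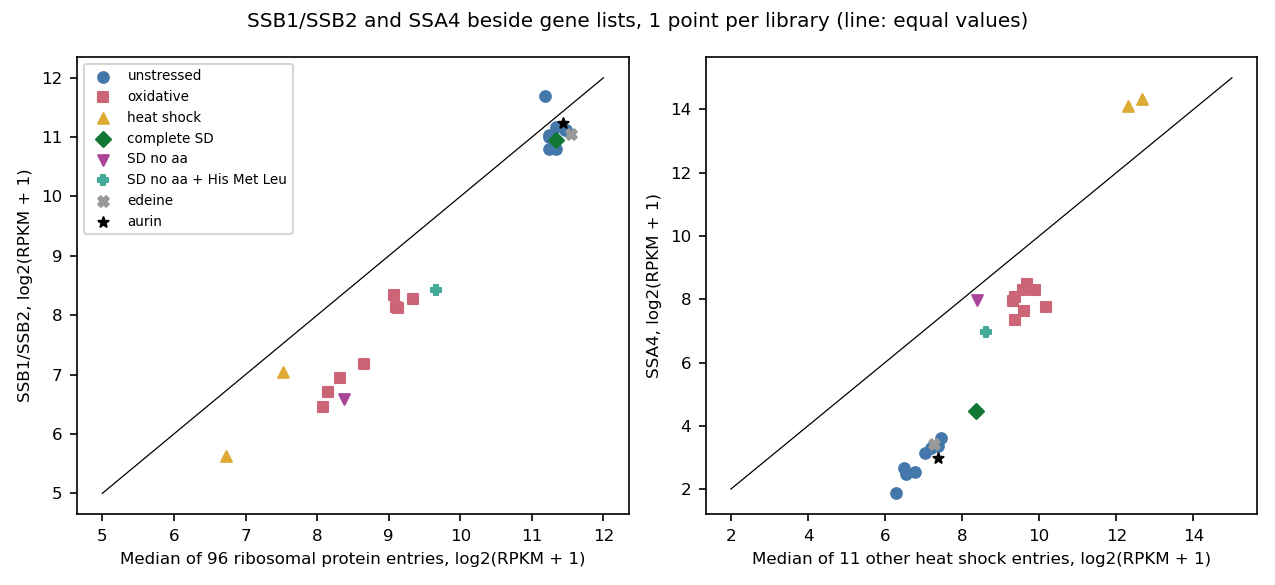
Left, log2(RPKM + 1) of SSB1/SSB2 against the median of 96 ribosomal protein entries; right, that of SSA4 against the median of 11 other heat shock entries, 1 point per library with the line of equal values. SSB1/SSB2 sits near the line in unstressed libraries and below it under oxidative stress, while SSA4 passes from below the line to above it only in the 2 heat shock libraries.

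Over the 23 libraries the likeness of the members' patterns was described by Pearson's r of log2(RPKM + 1), with no test, as the libraries share their stresses. SSA4 ran with SSE2 (r = 0.93) and SSA3 (r = 0.91) and against SSB1/SSB2 (r = −0.91). SSA1/SSA2 ran with SSC1 (r = 0.95), KAR2 (r = 0.91) and SSE1 (r = 0.75), and KAR2 with SSE1 (r = 0.87) and SSC1 (r = 0.80). Among 4375 genes outside the family, those most like SSA4 were HSP104, RIE1, HSP26, HSP78 and SPI1, with r from 0.983 to 0.965; HSP104 and HSP78 are disaggregases of the cytosol and the mitochondria. Those most like SSB1/SSB2 were YEF3, GUA1, YHR020W, RPS20 and the joint entry of RPL1A and RPL1B, with r from 0.996 to 0.989; YEF3 is the fungal elongation factor eEF3 and RPS20 and RPL1 are ribosomal proteins.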

How the data were processed

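Footprints were mapped by the authors to the S288C yeast genome (Bowtie 0.12.7 in the submitters' processing notes), and RPKM values per gene were deposited; the handling of reads that align to several genes is not given in the sources used here. The RPKM of a joint entry is over the summed length of its genes, as 99.4% of 168 low values are then whole reads. Depth was recovered from low values, which are whole multiples of 1 read (94.7 to 100% within 0.1) once 100 nt are taken off each frame. Deposited occupancy profiles were not used, and 1 sample of 40S subunits was not analysed here.

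log2(RPKM + 1) was tested with limma 3.58.1 (R 4.3.3; lmFit, eBayes, two-sided), over genes averaging at least 10 RPKM in the fit, with a Benjamini-Hochberg adjusted p threshold of 0.05 over all genes; fold changes on this scale understate those of low genes. Dose entered as a block, and the dose trend took log10 dose with stress and primer set. The heat shock fit pools the spread that remains in all 18 YPD libraries once dose is taken out. Its p-values thus lean mostly on how the difference between peroxide and unstressed libraries varied from dose to dose, and on the x100 repeats. Apart from x100, conditions had 1 library, and p-values measure the spread between these libraries. Scripts were tested on simulated data. Intervals of single libraries are 95% Poisson intervals of recovered reads and cover counting error only.

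The members were listed by name, but they, the gene lists and the tests were chosen with earlier results of these data known. Named genes are all members, at most the 2 highest and 2 lowest called genes of a list in a comparison, and the 5 genes most like SSA4 and SSB1/SSB2. Alternatives were pseudocounts of 0.1 and 10, no filter or 30 RPKM, centring on the median gene, other model terms, primer sets apart, and leaving out doses or libraries. R was complemented by numpy 2.4.6, scipy 1.17.1, pandas 2.3.3 and matplotlib 3.10.9 under Python 3.11.15. Promoter motifs were not searched.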

Additional observations from a re-analysis of the deposited data

Results flagged for a closer look

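The unstressed x1/64 library had 3310 RPKM of SSB1/SSB2, far above the next library at 2307 RPKM. It was 1 of 16 sets of 8 libraries examined, of which chance marks about 1 in 20. That library has 2.03 M reads (M, 10 to the power of 6), the shallowest of the unstressed series. Its part in the comparisons is given with the dependence on the processing.

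SSE1 was lower under oxidative stress at 7 of 7 doses and higher after heat shock at both doses. The direct test of that difference gave 2.53 on the log2 scale (limma adjusted p = 1.48e-07).

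SSA1/SSA2 and SSC1 had opposite signs in the 2 starved libraries relative to complete SD. SSA1/SSA2 stood at −2.12 in SD without amino acids and at 0.09 with histidine, methionine and leucine, and SSC1 at −1.48 and 0.02. The opposite signs hold only for RPKM as deposited. The median gene was 0.87 and 0.54 higher in these libraries, and relative to it both entries were lower in both, SSA1/SSA2 at −2.99 and −0.46 and SSC1 at −2.35 and −0.53. The uncentred values with the 3 amino acids are close to 0, and with 1 library per condition the difference was not tested.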

How the results depend on the processing

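All 8 member calls for heat shock against unstressed cells were kept in every alternative run. The calls of SSA4, SSE2, SSE1 and SSB1/SSB2 under oxidative stress were kept too, in both comparisons. Centring on the median gene turned SSA1/SSA2 to −0.10 across doses (limma adjusted p = 0.306) and took the call from SSC1; at x100 it left 0.14 for SSC1 (0.357) and 0.04 for SSA1/SSA2 (0.869). It also moved the share of higher calls from 73.4 to 50.3% for oxidative stress, 73.7 to 47.7% at x100, 38.2 to 50.5% for heat shock, 6.32 to 47.2% for heat shock against oxidative stress, 18.1 to 53.8% for the trend and 24.6 to 57.1% for x1 against none. KAR2 was called under oxidative stress without the x100 dose (−0.27, limma adjusted p = 0.035) and without the first peroxide x100 library (−0.24, 0.0322). Without the filter SSA3 differed by 2.26 (limma adjusted p = 7.67e-09), and SSA1/SSA2 at x100 had an adjusted p of 0.0531.

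Counts of genes called moved most. With a filter at 30 RPKM, which tests fewer genes, they were 2334 (oxidative stress), 1923 (x100), 1916 (heat shock), 2106 (heat shock against oxidative stress) and 419 (trend), against 3735, 3073, 3017, 3416 and 1040. Heat shock gave 1903 with its 4 matched libraries and 1966 within primer set 2, and centring gave 2034 against oxidative stress. The dose trend rests on the x1/64 dose: without it 0 genes and 0 members were called, as within primer set 1, and within primer set 2 359 genes and 0 members. Leaving out 1 x100 library gave 1 to 2 members for the trend, and 2 were called when centred, without the primer set term or without x100, the further one being SSA1/SSA2. For x1 against none, 179 genes became 48 to 117 without 1 of the x100 libraries, 32 with primer set as a term, 75 with unstressed and heat-shocked cells alone, and 334 without the unstressed x1/64 library, an alternative chosen after seeing the data. By median level over all 23 libraries, ranks were 7 for SSE2, 6 for SSA4, 5 for KAR2, 3 for SSC1, 2 for SSE1 and 4 for SSB1/SSB2. Relative to each library's median gene, these ranks became 6 for SSE2, 7 for SSA4, 4 for KAR2, 2 for SSC1, 3 for SSE1 and 5 for SSB1/SSB2. The cause of these shifts was not tested.

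The x100 libraries share replicate numbers, but the sources do not say that a number marks a shared culture, and the deviations of same-numbered libraries correlated with r = 0.44 over 4101 genes in the only 2 pairs. With the replicate block, 3719 genes were called across doses and 3196 at x100, and 6 members in each, so it changed no member call. Depth limits SSA3 in unstressed cells, where 1 library has 2 reads.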
